A study of Nicotiana tabacum with 39 samples.

Results

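The transcripts described here stood high in tobacco leaves at the end of an extended darkness. They kept most of that level through the first hour of renewed light. By 16 h they were below 1.5 times the level of untreated leaves, with no lower bound set there. They were chosen by the mean of each group in CPM (read counts divided by the library total and put on one common scale). A member had its highest mean at 0, 5 or 10 min of light, at least 5 CPM and at least 3 times the control mean at the end of darkness, at least 0.7 of the dark mean at both 30 min and 1 h, and less than 1.5 times the control mean at 16 h, with 0.1 CPM added in ratios. Of 53725 transcripts in the files, 148 met the rule, so its cap of 250 was not reached. All 148 passed the filter on low counts and were among the 42181 tested.

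The leaves were from Nicotiana tabacum (tobacco), raised in soil almost to maturity in days with 16 h of light at 350 uE/m2/s. Dark-treated plants then went through an extended darkness of unstated length, in which young leaves turned pale. They were harvested at the end of it (0 min), after 5, 10 or 30 min of light, after 1, 2, 4, 8, 16, 40 or 64 h, or at a last harvest after 6720 min, while control plants received no dark treatment. Each of the 13 groups had 3 libraries of polyA RNA, each made from 3 plants by pooling mid-leaf tissue of 2 leaves per plant, so the spread between libraries is that between pools. Variety, plant age and clock time of harvest are not stated, there was no group that stayed dark during the light times, and only the times from 16 h onward lie whole days apart. Library totals ran from 15844109 to 37269515 counts.

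A leaf in prolonged darkness can no longer make sugar by photosynthesis. Plants then raise transcripts for breaking down reserves, amino acids and chloroplast components, and dark-stable regulators such as the phytochrome-interacting factors hold a programme of dark growth in place. On return to light, photoreceptors remove those regulators within minutes, whereas sugar returns more slowly as plastids green. How fast a transcript disappears then depends on how soon its synthesis stops and on how stable the existing RNA is. The files identify transcripts by NCBI GI number only, and 0 of the 53725 identifiers could be paired with a name, a role, a sequence or a position among the 79372 genes of the name table used here. Which members belong to any of those processes is therefore not stated, the leaf label could not be checked against marker genes, and 4 members are shown by identifier.

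The bounds of the rule fell among transcripts with similar values. There were 1581 transcripts with at least 5 CPM and 3 times control at the end of darkness, and 1160 of them peaked at 0, 5 or 10 min. At 30 min 770 of those still held 0.7 of the dark level, at 1 h 173 did, and 148 were then below 1.5 times control at 16 h. The 1 h criterion removed most, since 487 transcripts failed that one alone. Just inside it the lowest member held 70.09% of its dark level at 1 h, and just outside the nearest transcript held 69.99%. Between 70% and 75% lay 59 members, and 14 members held 90% or more. The lowest ratio to control among members was 3.003, against 2.996 for the nearest transcript below that bound, and the highest level at 16 h was 1.497 times control, against 1.506 just outside.

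Taken as a sum, the 148 members made up 1.28%, 1.19% and 1.14% of all counts in the 3 libraries at the end of darkness, against 0.327%, 0.318% and 0.313% in the control libraries. The sum was 12070 ± 700 CPM in darkness and 3193 ± 72.4 CPM in control (SD, n = 3 each), a ratio of 3.78 that the rule itself favours. It stood at 12481 ± 654 CPM at 5 min, 12566 ± 596 CPM at 10 min and 11858 ± 767 CPM at 30 min, so the libraries of the first 30 min overlapped. It was 9413 ± 599 CPM at 1 h and 6529 ± 747 CPM at 2 h, then 4308 ± 641 CPM by 4 h and 3998 ± 635 CPM by 8 h. At 1, 2 and 4 h all 3 libraries lay below those of the time before. Replicates 1 to 3 had 3871, 4687 and 3436 CPM at 8 h, against 3579, 4784 and 4561 CPM at 4 h, and these groups overlapped. From 16 to 64 h the mean sum was between 3236 and 3307 CPM. The libraries were a bulk of leaf tissue, so less RNA per cell and fewer cells of a type cannot be told apart.

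**Figure D1:**
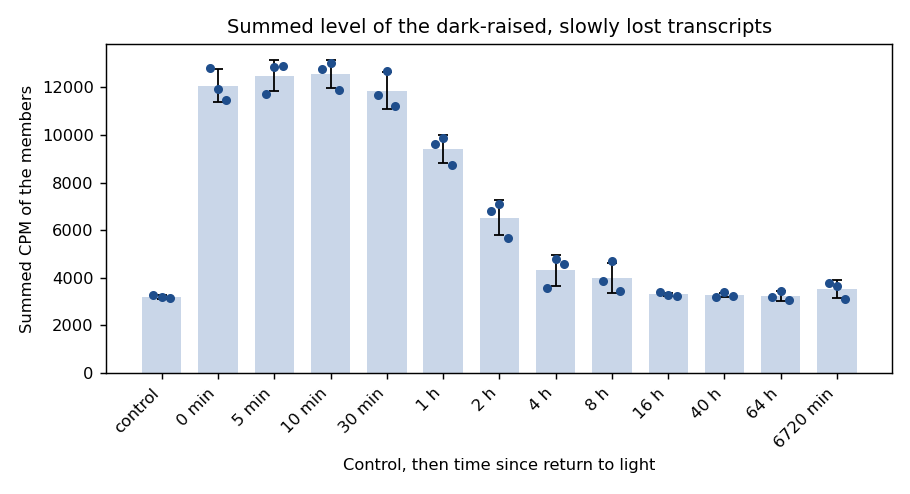
Summed CPM of the 148 members in each library (points), with the mean (bar) and SD (whisker) of 3 libraries, for control leaves and for each time since the return to light. The mean sum lies between 11858 and 12566 CPM up to 30 min, is at 6529 CPM at 2 h and lies between 3236 and 3307 CPM from 16 to 64 h.

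The rule admits ratios of darkness to control from 3 upward, and most members lay close above that bound. The median ratio was 3.54, 114 members were below 4, and 10 were at 5 or above. All 148 members were higher in darkness by edgeR's quasi-likelihood test, where 25.6% of all tested transcripts were higher and 24% lower, and for 147 members the 3 libraries of darkness exceeded each control library, as for 36% of all transcripts. At 2 h 96 members were lower than at 1 h and 0 higher, where 8.52% of all transcripts were lower and 7.2% higher. The rule used the first contrast and the 1 h level of the second, so nothing is read from these counts. Mean levels at the end of darkness ran from 5.37 to 1365 CPM with a median of 25.3 CPM, and in control from 0.0776 to 364 CPM with a median of 6.63 CPM. These levels are not corrected for transcript length. The highest mean fell at 10 min for 71 members, at 5 min for 60 and at 0 min for 17. Ratios here use library totals. TMM scaling, which corrects library sizes for shifts in composition, put the median of all tested transcripts at 0.025 in place of 0.24 on the log2 scale for darkness against control, and the median member at 1.61 in place of 1.82. With TMM-scaled CPM 113 transcripts met the rule, and 73 of them were among the 148 members.

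To see the pattern in libraries that had not been used to choose it, the rule was applied to 2 replicate numbers and the transcripts it chose were measured in the third. It chose 153, 186 and 136 transcripts, of which 91, 86 and 84 were among the 148. In the held-out libraries their median log2 ratio of the end of darkness to control was 1.81 ± 0.20 (SD, n = 3 rotations), and all of them were above control. On average 72.2 ± 16.5% of them reached 3 times control there. Their median level at 30 min was 99.9 ± 13.1% of the dark level. It was 76.4 ± 10.3% after 1 h and 52.1 ± 11.6% after 2 h. After 4 h it was 35.6 ± 6.72%, and after 8 h 34.4 ± 5.10%. With replicates 1 to 3 held out in turn, the median level at 1 h was 73.7%, 87.7% and 67.6%, the last below the bound of the rule. The share at 3 times control was 87.6%, 54.8% and 74.3%. The rotations shared libraries in the choice, so these SDs are not a spread over independent replicates. A level above control in darkness and a lower median at 2 and 4 h than at 1 h thus appeared in each unused replicate. This holds for the transcripts each rotation chose, a list that changed with the replicates, and not for the 148 as such.

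The plot of the level left at each time follows the members beside other transcripts raised in darkness. The median member was at 50.2 ± 8.43% of its dark level after 2 h and at 33.5 ± 3.91% after 4 h (SD of the median over 3 libraries). It stood at 33.3 ± 3.03% after 8 h and 31.7 ± 1.81% after 16 h, with control at 28.2%. The 1433 dark-raised transcripts that were not members had medians of 85.2% at 30 min and 54.9% at 1 h, followed by 35.9% after 2 h and 29.6% after 4 h. The values at 30 min and 1 h separate the sets by choice, and the difference at 2 and 4 h was not tested. Over all tested transcripts the median was 93.4% at 2 h and 94.2% at 4 h.

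**Figure D2:**
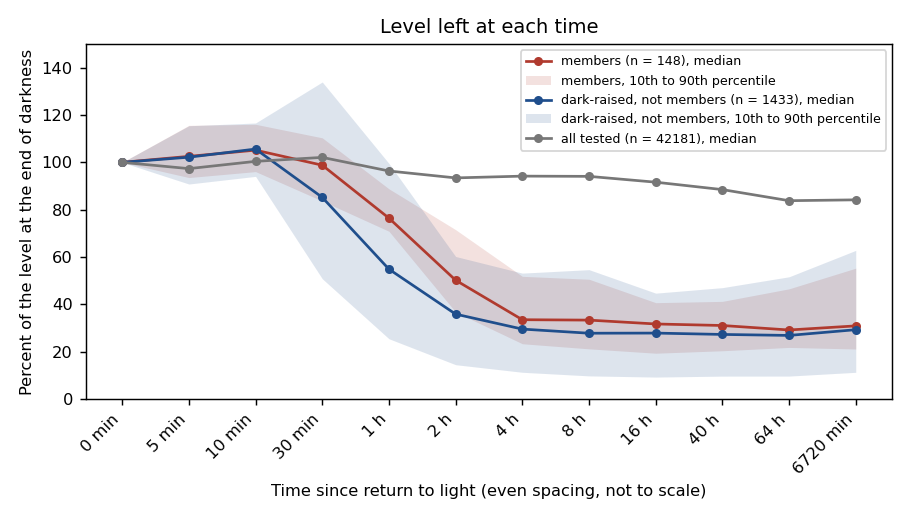
Level at each time since the return to light as a percent of the level at the end of darkness (CPM + 0.1), with times evenly spaced. Lines are medians over the 148 members, over 1433 other dark-raised transcripts and over 42181 tested transcripts, and bands for members and other dark-raised transcripts run from the 10th to the 90th percentile; members reach 50.2% at 2 h and 33.5% at 4 h.

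The members left their dark level at different times. The first time below 50% of the dark level was 2 h for 74 members, 4 h for 56, 8 h for 4 and 16 h for 14. By 16 h the rule leaves no other outcome. The 74 earliest had a median of 42.6% at 2 h and 28.9% at 4 h. The 56 that followed stood at 58.3% at 2 h and 41.0% at 4 h. The 14 latest had medians of 68.3% at 2 h and 54.7% at 4 h. They were still at 54.6% after 8 h, and at 39.6% after 16 h. From 16 h on the classes lay close together, with medians between 30.6% and 39.6% at 16 h. In 16 members the level at 2 h was still at least 0.9 of that at 1 h, and in 7 it was at or above it.

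The step from 2 to 4 h lies inside a decline that the rule builds in, since a member held at least 0.7 of its dark level at 1 h and was below 1.5 times control, hence below 50% of the dark level, at 16 h. The levels at 2, 4 and 8 h are not set by the rule except that none may hold the highest mean, so these steps describe where in that window the loss fell. The direction of the calls is therefore partly fixed by the choice and is not support for a decline. At 4 h 74 members were lower than at 2 h (edgeR quasi-likelihood test, adjusted p below 0.05) and 0 were higher, which is 50% of members, where 8.95% of all transcripts were lower and 7.49% higher. The 74 came from 60 runs of directly neighbouring identifiers. The median log2 difference was -0.52 over the 148 members and -0.013 over all tested transcripts, and 143 members had a value below 0. Among the 74 it ran from -2.23 to -0.37, with a median of -0.75, and 13 were at least 2-fold lower. For 87 members all 3 libraries at 4 h were below all 3 at 2 h, as for 15.8% of all transcripts. Of the 1433 other dark-raised transcripts 22.8% were lower and 4.82% higher. Members that were called had more counts, with a median of 483 counts per library at 2 h against 191 for those not called, and also larger differences, with medians of -0.75 and -0.36. The part that depth had in these calls was not tested.

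The count of 74 depended on single libraries. It was 38 without replicate 1 at 4 h, 41 without replicate 2 at 2 h, 39 with the 6 libraries fitted alone, and 10 without replicate 1 of all groups. The share of all transcripts called lower moved too, to 3.99%, 5.39%, 5.58% and 1.86% in these fits. The median member stayed lower at 4 h in each of these fits, at -0.44, -0.47, -0.50 and -0.40 on the log2 scale.

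**Figure D3:**
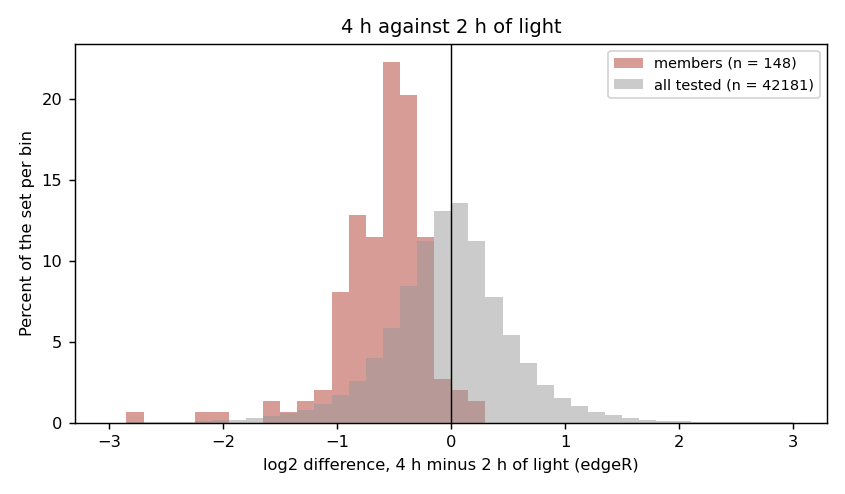
Distribution of the log2 difference between 4 h and 2 h of light from edgeR for the 148 members and for all 42181 tested transcripts, each as a percent of its set per bin (0.282% of all tested lie outside the axis of 3 units either way). Of the 148 members 143 lie left of 0, and the median of all 148 is -0.52.

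Between 4 and 8 h no further step could be told from the spread. By edgeR 0 members differed, 5 had an unadjusted p below 0.05, and DESeq2 also called 0. Of all 42181 transcripts 0 were called (0% in each direction) and 1174 had an unadjusted p below 0.05, while DESeq2 called 1. The median member differed by -0.065 on the log2 scale, with 80% of members between -0.29 and 0.13. Leaving out replicate 1 at 4 h or replicate 2 at 8 h gave 77 and 45 calls among all transcripts, and still 0 members.

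Between 8 and 40 h members moved both ways. At 40 h 18 were higher than at 8 h and 20 lower by edgeR, which is 12.2% and 13.5% of members, where 10.3% and 12.3% of all transcripts were called, and the median difference was -0.057 (log2). These shares are near those of all transcripts. By time of loss, a class defined on the same values and so given without a test, of the 74 members that had passed below 50% at 2 h, 17 were higher at 40 h and 2 lower. Of the 14 that did so only at 16 h, 0 were higher and 7 lower, and that class is defined by a high 8 h level. Both times differ in clock time as well as in time since the return to light. The counts of 18 higher and 20 lower became 8 higher and 29 lower with scaling by library size only. Of all transcripts 7.46% were then higher and 14.7% lower. The count of 18 became 8 with the 6 libraries alone, where 7.46% of all transcripts were higher. It was between 3 and 13 without 1 library or 1 replicate number, where 4.35% to 9.25% of all were higher. Among these fits it was 8 without replicate 3 at 8 h, 11 without replicate 1 and 6 without replicate 2 at 40 h. The shares of all transcripts called higher there were 7.98%, 9.02% and 5.62%. The count of 20 became 12 without replicate 2 at 8 h or replicate 1 at 40 h, where 8.31% and 10.7% of all were lower.

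The 4 harvests from 16 h onward lie whole days apart. Relative to control the median member lay at 0.19 ± 0.07 at 16 h and 0.17 ± 0.08 at 40 h (log2, SD of the median over 3 libraries). It lay at 0.14 ± 0.14 at 64 h and 0.25 ± 0.15 at the last harvest. The middle 80% of members lay between -0.41 and 0.98 at 6720 min, against -0.30 and 0.53 at 40 h. Over all tested transcripts these bounds were also wider, at -0.84 and 0.94 at 6720 min, against -0.43 and 0.60 at 40 h. At 16 h 0 members were at 1.5 times control or above, as the rule demands. This held for 10 members (6.76%) at 40 h, for 23 (15.5%) at 64 h and for 40 (27.0%) at 6720 min. Of the other dark-raised transcripts, which had no such bound, 22.2% were there after 16 h and 23.9% after 40 h. After 64 h 28.8% were, and after 6720 min 39.5%, a higher share than of members each time. The bound at 16 h favours a lower share among members, and the share over all tested transcripts was not counted. Below control were 31 members (20.9%) after 16 h and 45 (30.4%) after 40 h. They numbered 53 (35.8%) after 64 h and 45 (30.4%) after 6720 min. Of the other dark-raised transcripts 28.1%, 31.7%, 34.7% and 29.0% were below control at these times. From 40 h on these shares are near those of members. At 16 h 8 members were more than 1.5-fold below control, the lowest at 0.44 times control.

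Tested directly, 23 members were higher at 6720 min than at 40 h and 3 were lower (edgeR, adjusted p below 0.05), which is 15.5% and 2.03% of the 148. Over all transcripts 7.89% were higher and 9.05% lower. The 1433 other dark-raised transcripts had 15.5% higher and 3.07% lower, the same share of higher ones as among members. The median log2 difference was 0.19 over members and 0.038 over all transcripts. The 23 differed by 0.38 to 1.46, with 3 at least 2-fold, and belonged to 17 runs of neighbouring identifiers. Their median level was 1.28 times control at 40 h, 1.49 times at 64 h and 1.92 times at 6720 min, or 53.0% of the dark level at the last harvest. For 22 members all 3 libraries at 6720 min were above all 3 at 40 h, as for 12.9% of all transcripts, and for 16 they were all below, as for 19.4%.

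The number of late risers rested on few libraries. It was 1 without replicate 1 of all groups and 8 without replicate 3 of all groups, where 0.356% and 2.54% of all transcripts were higher. It was 8 without replicate 1 at 6720 min, 9 and 10 without replicate 1 or replicate 3 at 40 h, 13 with the 6 libraries alone, and 15 with scaling by library size only. The share of all transcripts called higher was 2.82%, 3.18%, 3.62%, 6.17% and 5.67% in these fits. The count of 3 lower members was 0 in the fits without replicate 1 or replicate 3 at 40 h or in all groups. In these fits 5.48%, 6.43%, 0.477% and 2.58% of all transcripts were lower. It was 1 without replicate 1 at 6720 min, 7 without replicate 2 of all groups and 5 with library size only. The shares of all transcripts called lower there were 4.91%, 12.9% and 10.0%. The median member was higher at 6720 min in all of these fits.

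**Figure D4:**
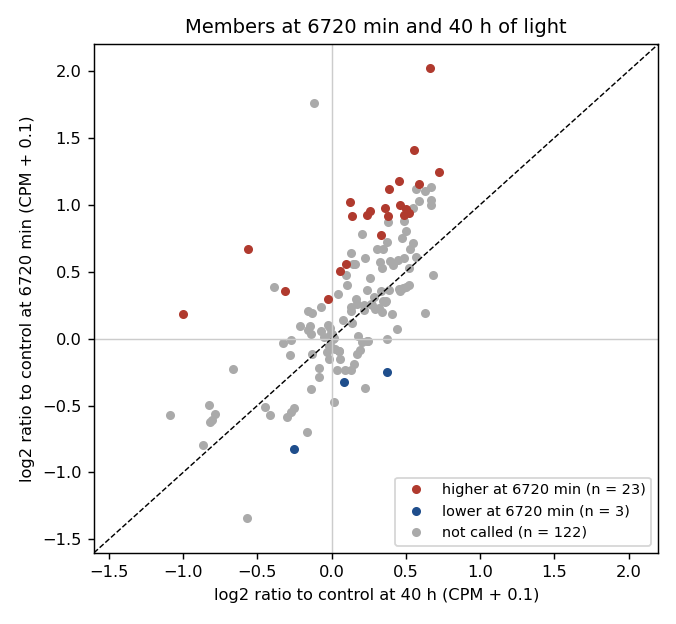
Each of the 148 members by its log2 ratio to control at 40 h (horizontal) and at 6720 min (vertical), both from mean CPM + 0.1, with equal values on the dashed line. The 23 members that were higher at 6720 min by edgeR lie above the line and the 3 that were lower lie below it.

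The 2 members with the highest ratio of darkness to control are shown first, since they carried the widest excess. Transcript 698573969 was almost absent from control leaves. Replicates 1 to 3 had 8.77, 34.5 and 8.52 CPM at the end of darkness, against 0.0435, 0.132 and 0.0577 CPM in control, where it had 1, 3 and 2 counts. Replicate 2 was the highest library at each light time up to 4 h, with 63.2 CPM at 5 min against 6.36 and 6.47 CPM. Summed over libraries the ratio of darkness to control was 225, with a 95% exact interval from 103 to 616 that covers counting error only and describes a transcript picked for this ratio. With 0.1 CPM added it was 97.8, far above the next member at 6.90. At 1 h it stood at 12.3 ± 10.3 CPM, and at 2 h at 1.80, 3.94 and 1.34 CPM. By 4 h it had 0, 17 and 5 counts, a log2 difference of -2.77 from 2 h (SE 1.15) that did not pass the test (adjusted p = 0.0983, edgeR), although the libraries did not overlap. It passed in DESeq2 (adjusted p = 0.0467), in edgeR with the 6 libraries alone (adjusted p = 0.0326) and in edgeR without replicate 2 of all groups (adjusted p = 0.000685). With a replicate block it also passed (adjusted p = 0.000118, edgeR), though the labels do not say that replicate numbers pair libraries. The transcript had 7, 20 and 3 counts at 6720 min, against 1, 1 and 2 counts at 40 h, a difference that did not pass (log2 2.87, SE 2.04, adjusted p = 0.364, edgeR).

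Transcript 698588944 had 24.2, 34.3 and 18.2 CPM at the end of darkness, against 1.79, 5.13 and 3.92 CPM in control, a ratio of 6.90 with groups that did not overlap. It held 28.1 ± 8.68 CPM at 30 min and 21.8 ± 10.1 CPM at 1 h, and stood at 7.86 ± 1.74 CPM at 2 h and 3.83 ± 0.97 CPM at 4 h. The last step did not pass the test (log2 -1.04, SE 0.44, adjusted p = 0.102, edgeR), though all 3 libraries at 4 h were below those at 2 h. With the 6 libraries alone it passed (adjusted p = 0.0232, edgeR), as it did with a replicate block (adjusted p = 0.0200, edgeR). At 64 h and at 6720 min its means were 5.92 ± 1.32 and 6.70 ± 0.72 CPM, or 1.62 and 1.83 times control. The difference between 6720 min and 40 h was 0.57 on the log2 scale (SE 0.43, adjusted p = 0.407, edgeR).

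The 2 members with the largest called fall at 4 h, among those with at least 10 CPM at 2 h, were at 96.6% and 131% of their dark level at 2 h. Transcript 698583901 had 57.6, 57.1 and 55.2 CPM at 2 h, against 73.6, 55.3 and 46.9 CPM at the end of darkness. At 4 h it had 6.40, 19.3 and 17.4 CPM, all below the 2 h libraries (log2 -1.98, SE 0.32, adjusted p = 6.42e-05, edgeR). It then stood between 8.85 and 11.1 CPM in the mean at every later time, with control at 13.4 ± 2.56 CPM. Of all members its level at 2 h was the highest relative to that at 1 h, a description chosen after its values were seen.

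Transcript 698567022 had 9.98, 15.9 and 10.8 CPM at 2 h, against 9.94, 7.60 and 10.4 CPM at the end of darkness, and 1.52, 2.63 and 1.33 CPM in control. Its highest mean, at 5 min, rested on replicate 3, with 9.16, 8.81 and 23.2 CPM in replicates 1 to 3. At 30 min these had 7.13, 18.4 and 13.5 CPM. Without replicate 3 at 5 min the highest mean would fall at 30 min, so membership of this transcript depends on that library. At 4 h the transcript had 1.45, 3.73 and 2.59 CPM (log2 -2.23, SE 0.47, adjusted p = 0.00127, edgeR). By 8 h it had 1.55 ± 0.61 CPM. Replicates 1 to 3 had 4.83, 11.3 and 3.19 CPM at 64 h, and at 6720 min 11.1, 4.65 and 7.48 CPM against 1.93, 4.96 and 1.94 CPM at 40 h. That difference passed the test (log2 1.46, SE 0.47, adjusted p = 0.0281, edgeR), although replicate 2 at 40 h was above replicate 2 at 6720 min. With 0.1 CPM added, its level at 6720 min was 4.06 times control, the highest such ratio among members. Transcript 698573969, with 0.50 CPM against 0.0776 CPM in control, was at 3.38 on that scale. The added 0.1 CPM lowers that ratio, so the ranking depends on it.

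**Figure D5:**
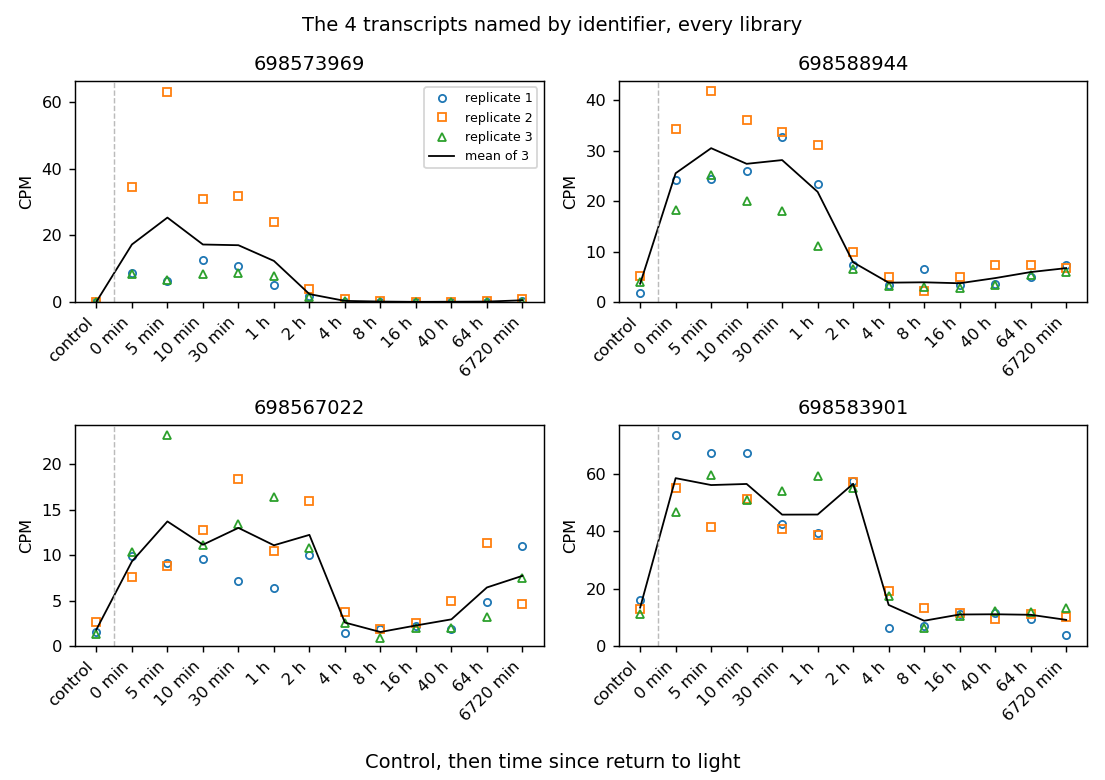
CPM in every library of the 4 transcripts shown by identifier, with control left of the dashed line and time since the return to light to its right; symbols are replicates and the line is the mean of 3. In 698583901 and 698567022 the mean at 2 h is 96.6% and 131% of the dark mean, and the 4 h libraries are all below the 2 h libraries.

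Further members were singled out after their values had been seen. The member with the most counts had 1744, 1063 and 1289 CPM at the end of darkness, against 430, 301 and 363 CPM in control. Its means were 1083 CPM after 2 h and 768 CPM after 4 h. It had 669 CPM after 8 h, 473 CPM after 16 h and 325 CPM after 64 h. Replicates at 8 h were far apart, at 466, 1029 and 513 CPM, and neither the step to 4 h nor that from 8 to 40 h passed the test (adjusted p = 0.150 and 0.0623, edgeR). Another had the lowest 8 h level relative to control. It had 322, 679 and 407 CPM in darkness, 55.6, 76.1 and 44.1 CPM at 4 h and 83.2, 26.8 and 68.1 CPM at 8 h, against 144, 174 and 106 CPM in control. The libraries at 4 and 8 h were all below those of control. At 6720 min its libraries ran from 80.5 to 163 CPM and overlapped control.

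Some members were neighbours in the deposited order, and whether such neighbours are near-identical copies that share reads is not known here. Next to another member lay 46, forming 20 pairs and 1 run of 6. The 148 members were thus 123 entries when only directly adjacent ones were merged. Members close by but not directly adjacent were counted apart, so these entries need not be unrelated. Over the 39 libraries the 25 neighbouring pairs had a median Pearson r of 0.99 (log2 of CPM + 0.1), against 0.88 for the 10853 other pairs, which share the same libraries and the same rule. The run of 6 had 75.4, 66.2 and 91.1 CPM in sum at the end of darkness, against 23.0, 23.1 and 18.7 CPM in control. All 6 were lower at 4 h than at 2 h (log2 from -0.87 to -0.67, adjusted p between 0.0030 and 0.0234, edgeR). All 6 were higher at 6720 min than at 40 h (log2 from 0.61 to 0.97, adjusted p up to 0.0337, edgeR), with sums of 51.4, 42.2 and 34.4 CPM at 6720 min and 26.4, 26.8 and 24.8 CPM at 40 h. They thus gave 6 of the 23 late risers. Across the 39 libraries 114 members had a correlation of at least 0.9 with the mean profile of the members. So did 1874 transcripts outside the list, where 42181 were tested in all, and 665 of the 1433 other dark-raised ones. Each member is part of that profile and the rule favours such likeness, so nothing is read from the 114.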

How the data were processed

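The authors deposited 39 tables, 1 per library, holding unnormalized whole-number counts of reads on each transcript. Per the labels' protocols, polyA RNA was made into TruSeq libraries and read as single ends of 100 bp. Per the submitters' processing notes the tools included FastQC 0.10.1, BWA 0.70 and SAMtools 1.0, with no roles stated. Part of the extraction text describes harvests of another design and was not used. The reference sequences, counting tool, treatment of reads shared between near-identical copies and strand setting were all not given in the sources used here.

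Members were found from CPM on library totals as the rule says. Tests used edgeR 4.0.16 in R 4.3.3, with filterByExpr (minimum count 10, minimum total 15), TMM scaling and 1 quasi-likelihood fit over the 39 libraries and 13 groups, without replicate number as a term. Adjusted p-values are Benjamini-Hochberg over 42181 transcripts, and a transcript is called below 0.05. SE is the absolute log2 difference divided by the square root of F. DESeq2 1.42.0 was an alternative. On simulated counts for 4 h against 2 h, 66% of 100 transcripts changed 2-fold and 100% of 100 changed 4-fold were called among 38684 tested. Of the unchanged ones 8 were called. The simulation held only the libraries of 2 h and 4 h, with the same spread for every transcript and no changes at low counts. It therefore does not give the power of the fit over 39 libraries. Any 2 libraries of a group differed by at least 3.57 times sampling noise (mean chi-square per transcript), so none was counted as a copy.

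The transcripts shown by identifier are the 2 members with the highest ratio of darkness to control, and the 2 with the largest called fall from 2 to 4 h among those with at least 10 CPM at 2 h. The pathway lists drawn up for named genes could not be applied, since 0 identifiers were paired with names. The members, lists and tests were chosen with earlier results of these data known.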

Additional observations from a re-analysis of the deposited data

Results flagged for a closer look

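Between the last harvest (6720 min) and 40 h the distance from control changed for 26 members, by edgeR's quasi-likelihood test of one time against the other. Of these 23 were higher and 3 lower at the last harvest, which is 15.5% and 2.03% of members, beside 7.89% and 9.05% of all transcripts and 15.5% and 3.07% of the other dark-raised ones. Without replicate 1 of all groups 1 member was higher and 0 lower, where 0.356% and 0.477% of all transcripts were called.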

How the results depend on the processing

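No member was called higher at 4 h than at 2 h, or either way at 8 h against 4 h, under any alternative run. The counts that moved by over 1.5 times were as follows. With the 6 libraries compared alone, 39 members were lower at 4 h than at 2 h, 8 were higher at 40 h than at 8 h, and 13 were higher at 6720 min than at 40 h. The shares of all transcripts called in these fits were 5.58%, 7.46% and 6.17%. With library size only there were 8 higher at 40 h, and 15 higher and 5 lower at 6720 min. Of all transcripts 7.46%, 5.67% and 10.0% were then called. Leaving out replicates gave 10 to 77 members lower at 4 h, 3 to 13 higher and 9 to 20 lower at 40 h, and 1 to 24 higher and 0 to 7 lower at 6720 min. Of all transcripts these fits called 1.86% to 9.17% lower at 4 h. At 40 h they called 4.35% to 9.25% higher and 5.23% to 11.3% lower. At 6720 min the shares were 0.356% to 10.5% higher and 0.477% to 12.9% lower. The rule found 41 transcripts with 0.8 in place of 0.7 and 303 with 0.6, and 150 (140 of them members) with nothing added in its thresholds, which was chosen after seeing the data, as was counting neighbours once. With 0.8 the median level was 40.9% at 4 h and 39.1% at 8 h. With TMM-scaled CPM 113 transcripts met the rule, and 73 of them were among the 148 members. The median level at 8 h over those 113 was 29.2%. The 4 transcripts named kept their direction at 4 h in 60 of 60 alternatives, and in 6 of them a fall that had not passed did so (4 for 698573969 and 2 for 698588944). The median member at 40 h against 8 h turned from -0.057 to 0.032 (log2) without replicate 1 of all groups, and at 8 h against 4 h from -0.065 to 0.013 without replicate 2 at 4 h. The labels do not say that replicate numbers pair libraries, and not every pair deviated together. Correlations of same-numbered deviations ran from -0.43 to 0.30 over the 4 comparisons. For 4 h against 2 h they were 0.0041, 0.27 and 0.20 for replicates 1 to 3, with at most 0.098 between different numbers. In the other comparisons the highest value between different numbers exceeded every same-numbered one. A replicate block gave 91 members lower at 4 h, 22 higher and 23 lower at 40 h, and 31 higher and 4 lower at 6720 min. Of all transcripts the block called 11.6% lower at 4 h, 12.6% higher and 14.6% lower at 40 h. At 6720 min it called 10.8% of all transcripts in each direction. The falls of 698573969 and 698588944 at 4 h passed with the block (edgeR, adjusted p = 0.000118 and 0.0200).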
